A study of Mus musculus with 4 samples.

Results

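The peaks described here lie in gene deserts, the long stretches between protein-coding genes. A peak was taken when its summit lay outside every protein-coding gene span and more than 50000 bp (50 kb) from the nearest span, on GRCm38 coordinates. The rule used position alone and no measured strength. It kept 4102 of 21285 peaks in list 1, or 19.3% (Wilson 95% interval 18.7 to 19.8), and 4285 of 21218 in list 2, or 20.2% (19.7 to 20.7). Together the lists gave 8387 gene-desert peaks of 42503.

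The peaks come from chromatin immunoprecipitation with sequencing (ChIP-seq) in cardiac fibroblasts of newborn mice, under 2 conditions: overexpression of TEAD1 (OE-TEAD1) and the overexpression negative control (OE-NC). Each condition has a ChIP library and an input library, so the 4 groups hold 1 library each. The labels tie neither peak list to a condition. They are therefore numbered, and a difference between them has no direction with respect to TEAD1 overexpression and no replicate check. The sources used here give no antibody, construct promoter, mouse strain or number of animals or cultures. The labelled cell type could not be checked against marker genes, because the lists hold no expression values.

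TEAD1 is a DNA-binding protein of the Hippo pathway. It has little activating power of its own and recruits the coactivators YAP and TAZ, whose entry into the nucleus the Hippo kinases restrain. In fibroblasts YAP, TAZ and TEAD factors act on genes of the cytoskeleton, of growth and of the matrix, largely from enhancers far from the genes they act on and often next to AP-1 factors. TEAD factors recognise the letters GGAATG, which read CATTCC on the opposite strand. AP-1 factors recognise TGANTCA, which reads the same on either strand.

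Sequence of the peaks themselves was not used here, but some summits fell on annotated promoter windows of long non-coding RNA genes, which run from 250 bases before to 50 after a transcription start in RefSeq (GRCm38.p6). Of the 32619 windows in the table, 3360 lay in gene deserts, all of long non-coding RNA genes, and 33 of these held a list 1 summit, 40 a list 2 summit and 26 a summit of both. These are 0.982% and 1.19% of the gene-desert windows, beside 0.932% and 0.846% of all windows. The share was thus near that of all windows in list 1 and somewhat higher in list 2. The deserts held 4.53 and 4.73 summits per Mb, fewer than the 8.34 and 8.32 of the whole length searched. From the windows with summits of both lists, 5 with a high −log10 q in the weaker list are printed, 5′ to 3′ on the strand of the gene. They show the bases under strong gene-desert peaks. Not every such window was open to this choice, so they need not be the 5 highest. Capitals mark GGAATG on either strand and TGANTCA.
Gm19705, chr1:136683146-136683445, + strand: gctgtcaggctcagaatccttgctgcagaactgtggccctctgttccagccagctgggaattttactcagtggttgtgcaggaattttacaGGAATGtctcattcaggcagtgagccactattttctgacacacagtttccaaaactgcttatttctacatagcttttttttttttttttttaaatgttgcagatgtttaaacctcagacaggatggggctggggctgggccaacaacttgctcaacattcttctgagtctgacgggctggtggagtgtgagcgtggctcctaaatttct
Gm12022, chr11:18493217-18493516, - strand: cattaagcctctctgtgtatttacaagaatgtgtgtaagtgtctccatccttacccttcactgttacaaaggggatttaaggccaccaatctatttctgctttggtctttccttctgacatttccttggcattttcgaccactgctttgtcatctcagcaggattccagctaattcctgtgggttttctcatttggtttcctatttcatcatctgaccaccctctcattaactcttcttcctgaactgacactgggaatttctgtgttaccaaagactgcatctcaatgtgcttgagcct
Wincr1, chr4:89050057-89050356, + strand: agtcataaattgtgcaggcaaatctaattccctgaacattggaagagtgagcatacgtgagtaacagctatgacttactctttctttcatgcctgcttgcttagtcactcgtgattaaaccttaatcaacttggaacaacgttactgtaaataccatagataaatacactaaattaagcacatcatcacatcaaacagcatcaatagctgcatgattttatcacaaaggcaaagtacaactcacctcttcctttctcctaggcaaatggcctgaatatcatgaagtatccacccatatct
A530046M15Rik, chr13:15806993-15807292, + strand: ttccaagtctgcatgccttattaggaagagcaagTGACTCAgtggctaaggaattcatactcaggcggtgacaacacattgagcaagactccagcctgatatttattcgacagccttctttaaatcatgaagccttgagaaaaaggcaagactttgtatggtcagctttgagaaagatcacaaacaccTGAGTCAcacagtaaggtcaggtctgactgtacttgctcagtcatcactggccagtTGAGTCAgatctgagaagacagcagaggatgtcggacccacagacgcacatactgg
Gm5546, chr3:104360269-104360568, - strand: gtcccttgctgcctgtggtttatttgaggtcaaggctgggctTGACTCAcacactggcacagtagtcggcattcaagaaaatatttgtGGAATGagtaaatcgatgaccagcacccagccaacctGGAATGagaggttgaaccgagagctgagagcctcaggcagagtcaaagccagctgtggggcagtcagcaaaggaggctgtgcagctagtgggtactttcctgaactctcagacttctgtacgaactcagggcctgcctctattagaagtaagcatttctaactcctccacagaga

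Here and below, a fold is the ChIP signal at the summit over the local background from input, as the authors' peak caller gave it. The bracket after a fold is an exact Poisson 95% interval of the ChIP fragments at the summit, which covers counting error only. The Gm19705 window held a summit at base 78 in list 1 and at base 79 in list 2, with folds of 39.8 (34.6 to 45.7) and 80.8 (71.0 to 91.6). Its GGAATG began at base 92, so 14 and 13 bp from the summits. The Gm5546 window held GGAATG at bases 89 and 126 and TGACTCA at base 43, and its summits stood at bases 92 and 70, with folds of 14.9 (11.3 to 19.4) and 17.0 (13.1 to 21.6). In the A530046M15Rik window there was no GGAATG but 3 TGANTCA matches, at bases 35, 189 and 245. Its summits, at bases 69 and 64, had folds of 19.1 (14.3 to 24.99) and 18.1 (13.6 to 23.7). The windows of Gm12022 and of Wincr1, a gene named for its induction by Wnt signalling, held neither motif. Gm12022 had folds of 24.2 (18.8 to 30.8) and 37.3 (30.6 to 45.1), and Wincr1 22.3 (17.1 to 28.5) and 23.0 (18.2 to 28.6). A match of these letters is a description of the window, not a binding site.

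Over all gene-desert promoter windows with a summit, GGAATG was found in 17 of 33 in list 1, or 51.5% (Wilson interval 35.2 to 67.5), and in 18 of 40 in list 2, or 45.0% (30.7 to 60.2). Gene-desert windows without any summit held it in 561 of 3313 cases, or 16.9% (15.7 to 18.2), and all promoter windows in 4763 of 32619, or 14.6%. TGANTCA stood in 10 of 33 windows with a list 1 summit (30.3%, 17.4 to 47.3) and in 13 of 40 with a list 2 summit (32.5%, 20.1 to 48.0), against 362 of 3313 without a summit (10.9%). Of all windows 7.85% held it. The windows with summits thus held both motifs more often than the windows without, in each list. The 3360 gene-desert windows belong to 2791 genes, so windows of a gene can overlap and count the same bases again. The Wilson intervals treat windows as independent. Windows with a summit outside the deserts were not counted apart, so these shares cannot be called particular to the deserts. Of the windows counted, 26 were the same in both lists, so the lists are not separate evidence here.

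MicroRNA genes also lie in the deserts. Of 1005 RefSeq hairpins 153 lay more than 50 kb from a protein-coding span, and a gene-desert summit lay within 10 kb of 11 of these in list 1 (7.19%) and of 17 in list 2 (11.1%). All 11 of list 1 were among those of list 2. Of all desert positions 6.69% in list 1 and 7.05% in list 2 lay within 10 kb of a gene-desert summit, and 18.1% and 18.3% of all 1005 hairpins had any summit that close. The share at desert hairpins was therefore near that of desert positions in list 1 and above it in list 2, on 11 and 17 hairpins. No test was made, and the hairpins below are described as single sites. For 5 hairpins both lists had a summit within 2 kb: Mir206, Mir30a, Mir29a, Mir29b-1 and Gm51276. Mir206, which encodes a microRNA enriched in skeletal muscle, carried summits inside the hairpin. Its hairpin (chr1:20679010-20679082, + strand) and 1 mature microRNA each of Mir206, Mir30a, Mir29a and Mir29b-1 are printed with the motif in capitals in the hairpin and the seed, bases 2 to 8, in capitals in each mature form.
Mir206 hairpin: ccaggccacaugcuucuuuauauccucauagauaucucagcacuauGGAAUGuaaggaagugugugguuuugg
mmu-miR-206-3p: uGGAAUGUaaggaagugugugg
mmu-miR-30a-5p: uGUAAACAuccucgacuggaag
mmu-miR-29a-3p: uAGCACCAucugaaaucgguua
mmu-miR-29b-3p: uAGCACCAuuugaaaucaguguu

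The Mir206 hairpin holds GGAAUG at base 47, where it is also the start of the seed of miR-206-3p. The DNA of that motif spans 20679056 to 20679061 on chromosome 1. The list 1 summit stood at 20679059, inside the motif, and the list 2 summit at 20679055, 1 bp before it. GGAAUG or its reverse complement stood in 43 of the 1005 hairpins (4.28%). The peak at the hairpin had 38 fragments and a fold of 9.49 (6.78 to 12.9) in list 1, and 47 fragments and a fold of 15.3 (11.3 to 20.3) in list 2. A stronger peak stood 0.775 kb before the hairpin in list 1 (16.9-fold, 12.7 to 22.1) and 0.791 kb before it in list 2 (17.8-fold, 13.6 to 22.8). Mir206 lies 51.8 kb from the nearest protein-coding span, between Pkhd1 and Il17a, so close to the 50 kb limit of the rule.

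Mir30a, of a family that targets the mRNA of connective tissue growth factor in heart fibroblasts, had the strongest of these peaks. Its summits lay 1.17 kb from the hairpin in both lists, with folds of 32.1 (26.9 to 38.1) and 74.0 (64.4 to 84.6). The hairpins Mir29a and Mir29b-1 give mature microRNAs that share the seed AGCACCA and repress collagens and other matrix genes. The summit nearest to them lay 0.483 kb from Mir29a in list 1 and 0.487 kb in list 2, with folds of 7.52 (5.01 to 10.9) and 6.66 (4.56 to 9.42). The summit near Gm51276 had folds of 18.7 (14.0 to 24.6) and 19.2 (14.5 to 24.9). Farther off, at 4.38 kb in both lists, the peak at Mir125b-1 had folds of 9.0 and 15.

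In strength the gene-desert peaks lay close to the lists as a whole. Their median fold was 6.40 in list 1 (exact binomial 95% interval of the median 6.24 to 6.60) and 6.97 in list 2 (6.69 to 6.99), beside 6.24 and 6.83 over all peaks. The middle of the members ran from 4.77 to 9.88 in list 1 and from 4.95 to 11.2 in list 2 (quartiles). The median gene-desert peak was 491 bp wide in list 1 and 458 bp in list 2, against 472 and 445 bp over all peaks. Its summit held 20 ChIP fragments in list 1, with quartiles of 14 and 31, and 22 in list 2, with quartiles of 15 and 36. These fragment numbers were solved from the deposited fold and p, and the local background they stand over had a floor of 1.72 fragments in list 1 and 1.87 in list 2.

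Strong peaks were about as frequent in the deserts as in the whole lists. In list 1, 994 members stood at least 10-fold over input, or 24.2%, beside 22.9% of all list 1 peaks. In list 2 the count was 1268, or 29.6%, beside 28.1% of all list 2 peaks. Among the 1000 peaks with the highest −log10 q, 232 were gene-desert peaks in list 1 and 235 in list 2. In the lowest decile of −log10 q over the whole list, 17.6% of list 1 peaks and 20.1% of list 2 peaks were gene-desert peaks. In the highest decile the shares were 22.5% and 22.8%. These ranks by −log10 q also count the sites over a very high input that are described below. The shares at 10-fold were thus within 2 percentage points of those of the whole lists.

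Some gene-desert peaks stood over a very high input. The site between Lrrc4c and Iftap (chromosome 2 at 98666742 to 98667199) had about 46508 fragments over a local background of 36913 in list 1 and about 49274 over 31165 in list 2, with folds of 1.26 and 1.58. The site before Alkbh8 (chromosome 9 at 3024061 to 3024552) had about 26410 over 19591 and about 28747 over 16904, with folds of 1.35 and 1.7. By −log10 q these sites ranked 7 and 8 of all list 1 peaks and 1 and 2 of all list 2 peaks, at folds far below the median. One more site, on chromosome 9 at 3017923 to 3018676, stood over 767 and 701 background fragments, with folds of 1.56 and 1.69. Outside these 3 sites the highest background at a gene-desert summit was 21.3 in list 1 and 14.6 in list 2. A local background over 2 times the floor was found at 411 members in list 1 (10.02%, against 9.31% of all list 1 peaks) and at 186 in list 2 (4.34%, against 4.65%).

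Gene-desert peaks thinned out with distance from genes but did not weaken. Positions more than 50 kb from a protein-coding span made up 907 Mb, or 35.5%, of the 2551 Mb searched between the outermost summits of each chromosome. They held 4.53 summits per Mb in list 1 and 4.73 in list 2, against 8.34 and 8.32 over the whole length searched. From 50 to 100 kb from a span there were 7.80 summits per Mb in list 1 (Poisson interval 7.42 to 8.20) and 7.89 in list 2 (7.51 to 8.29). From 100 to 200 kb the densities were 6.04 and 6.34, from 200 to 500 kb 3.55 and 3.86. Beyond 500 kb 253 peaks of list 1 and 269 of list 2 remained, 1.18 (1.04 to 1.34) and 1.26 per Mb (1.11 to 1.42).

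Across the same bands the median fold ran only from 6.33 to 6.50 in list 1 and from 6.93 to 6.98 in list 2. The share with a fold of at least 10 ran from 23.2% to 24.98% and from 28.1% to 30.7%. Assembly gaps and stretches where reads cannot be placed were not taken out of the Mb, and their part in the densities was not tested. These Poisson intervals treat summits as independent, although 49.0% of list 1 members and 47.4% of list 2 members had another summit of the same list within 12.5 kb (50.2% of all list 1 peaks and 49.2% of all list 2 peaks did).

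**Figure D1:**
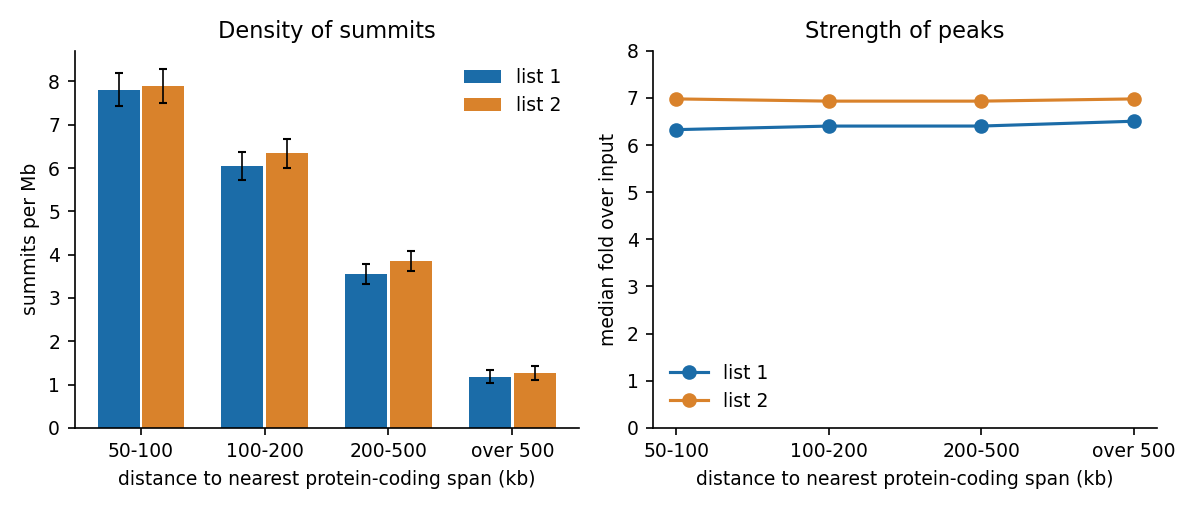
Left, summits per Mb (bars, Poisson 95% intervals) against the distance to the nearest protein-coding span in kb, for list 1 and list 2. Right, the median fold over input of the same peaks. The density goes from 7.80 and 7.89 per Mb in the nearest band to 1.18 and 1.26 beyond 500 kb, while the median fold stays between 6.33 and 6.98.

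The peaks farthest from any coding gene were the same 5 sites in both lists. A pair of them lay between Olfm4 and Pcdh17 on chromosome 14, more than 2 Mb from either gene. The farthest, at 82117628 to 82117900 and 2095 kb from Olfm4, was weak, with 15 fragments and 5.88-fold over input (3.45 to 9.45) in list 1 and 11 fragments and 3.12-fold (1.69 to 5.38) in list 2. Its neighbour at 82064983 to 82065722 had folds of 10.3 (7.30 to 14.2) and 12.5 (9.10 to 16.8). The other 3 lay between Dsel and Cntnap5a, a neuronal cell adhesion gene, on chromosome 1. The one at 113970552 to 113971186, 1714 kb from Cntnap5a, was strong in both lists, with 99 fragments and 31.0-fold (25.3 to 37.7) in list 1 and 231 fragments and 80.9-fold (70.9 to 92.0) in list 2. The others, at 113630891 to 113631377 and 113585442 to 113585780, had folds of 8.12 and 6.51 in list 1 and 9.57 and 5.93 in list 2.

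The sites below were among those with the highest −log10 q in a list, ranked with or without sites of raised local background. The sites over a very high input given above also ranked there. Folds of some sites differed between the lists, most at the site between Nox3 and Arid1b. Between Nmbr and Cited2, a coactivator gene needed for heart development, the site at 17012093 to 17013324 on chromosome 10 had 383 fragments and 93.4-fold (84.3 to 103) in list 1 and 373 fragments and 122.7-fold (111 to 136) in list 2. It lay 710 kb from Cited2. Between Pgrmc2 and Jade1, which encodes a scaffold of a histone acetyltransferase complex, 2 sites of chromosome 3 were strong. The one at 41185031 to 41186101 had folds of 101.9 (90.8 to 114) and 121.6 (110 to 134), and the one at 41220451 to 41221299 folds of 53.9 (46.7 to 61.8) and 78.9 (69.7 to 89.0).

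Between Myc and Gsdmc the site at 62327765 to 62329867 on chromosome 15, 338 kb from Myc, had folds of 59.7 (53.7 to 66.1) and 100.8 (91.2 to 111). Its fragments, 368 and 401, differed less than its local backgrounds of 5.18 and 2.99. A second site there, at 62658290 to 62659661, had folds of 51.3 and 61.4. Beside Bmp4, which encodes a bone morphogenetic protein, the site at 46516144 to 46517935 on chromosome 14 had 226 and 350 fragments and folds of 73.8 (64.6 to 84.1) and 122.5 (110 to 136). It lay 127 kb from Bmp4, with Cdkn3 on the other side.

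Between the transcription factor gene Ets1 and Kirrel3 the site at 34279319 to 34280396 on chromosome 9 had folds of 79.7 (69.5 to 91.0) and 102.2 (90.9 to 115). Between Dchs2 and Sfrp2, which encodes a secreted Wnt modulator, the site at 83445464 to 83447031 on chromosome 3 had nearly equal folds of 63.4 (54.9 to 72.9) and 62.7 (55.6 to 70.6). Between Tnc, which encodes the matrix protein tenascin C, and Pappa, a protease of insulin-like growth factor binding proteins, the site at 64634967 to 64636325 on chromosome 4 lay 589 kb from Tnc and 488 kb from Pappa. It had folds of 62.8 (54.1 to 72.4) and 49.98 (43.2 to 57.6). Between the chaperone gene Dnajb6, 108 kb away, and the interleukin-6 gene Il6, 118 kb away, the site at 29894339 to 29895305 on chromosome 5 had folds of 60.2 (51.4 to 70.2) and 55.5 (47.2 to 64.8). In list 2 a site between Cdc42ep3, an effector of the GTPase Cdc42, and Rmdn2 on chromosome 17 (79454315 to 79455088) reached 79.5-fold, and one between Tmem38b and Zfp462 on chromosome 4 (54877161 to 54877949) 87.6-fold. In list 1 the same sites had folds of 22.7 and 39.1. All sites of this paragraph and of the 2 before it were called in both lists.

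The highest peak of list 1 was different. The site between Nox3 and Arid1b on chromosome 17 (4626165 to 4626598), 368 kb from Arid1b, had 459 fragments over a background of 2.07 in list 1, a fold of 149.6 (136 to 164), and ranked 1 of all 21285 peaks. In list 2 the same site, with its summit 0.015 kb away, had 56 fragments over a background of 7.31, a fold of 6.86 (5.21 to 8.87), and ranked 5006. The peak was 434 bp wide, below the median of the list, while the other 9 of the 10 highest list 1 sites without raised local background were 849 to 1792 bp wide.

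Summits lay in a minority of deserts, many of which are short. The rule left 2737 deserts, stretches between neighbouring protein-coding spans with room more than 50 kb from both, counted below without those margins. Of these 1018 held a list 1 summit and 1089 a list 2 summit, 942 held both and 1572 held neither. The median length was 127 kb over all deserts and 73.1 kb over those with neither, and the part of length in these counts was not tested. The 10 deserts with the most summits over both lists made up 1.54% of the desert length. They held 8.07% of the members of list 1 and 7.54% of list 2. They were picked by these same counts, so a high share was built in. The stretch from Myc to Gsdmc had 57 summits in list 1 and 60 in list 2 over 1.69 Mb, and that from Nmbr to Cited2 44 and 49 over 2.85 Mb. Next came Adamts5, an aggrecan-cleaving protease, to N6amt1 (39 and 37), Rasgrp1 to Thbs1, the matricellular thrombospondin (29 and 32), and Plpp3 to Usp24 (31 and 24). Zeb2, a repressor of epithelial genes, to Acvr2a had 32 and 22, and Fn1, fibronectin, to Mreg had 26 in each list. The last of the 10 were Klf4 to Actl7b (26 and 24), Gadd45g to Diras2 (24 and 25) and Plk2 to Actbl2 (23 and 24).

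Counts per desert were alike in the lists, and the largest difference was 10 summits, at Zeb2 to Acvr2a. Among deserts with at least 10 summits over both lists, density was highest from Adm, the vasodilator peptide adrenomedullin, to Ampd3, with 6 summits in each list in 0.038 Mb. Slc44a3 to 4930432M17Rik followed with 7 and 5, Ifne to Mtap with 21 and 19 in 0.157 Mb, Tes to Cav2, a caveolin gene, with 5 and 8, and Asap1, an Arf GTPase-activating protein, to Adcy8 with 17 and 18. The deserts of other genes chosen in any case also held summits. From Moxd1 to Ccn2, connective tissue growth factor, there were 12 and 13 summits, up to 25.3-fold and 27.0-fold, and from Ankrd1, a muscle stress protein, to Pcgf5 9 and 10, up to 19.0-fold and 22.4-fold. From Ccn1 to Ddah1 there were 2 in each list, up to 22.3-fold and 41.4-fold. On the sides of Sox9, a master regulator of cartilage, there were 18 and 14 (from Gm11677) and 7 and 5 (to Slc39a11). From A1bg to Myc there were 23 and 19.

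**Figure D2:**
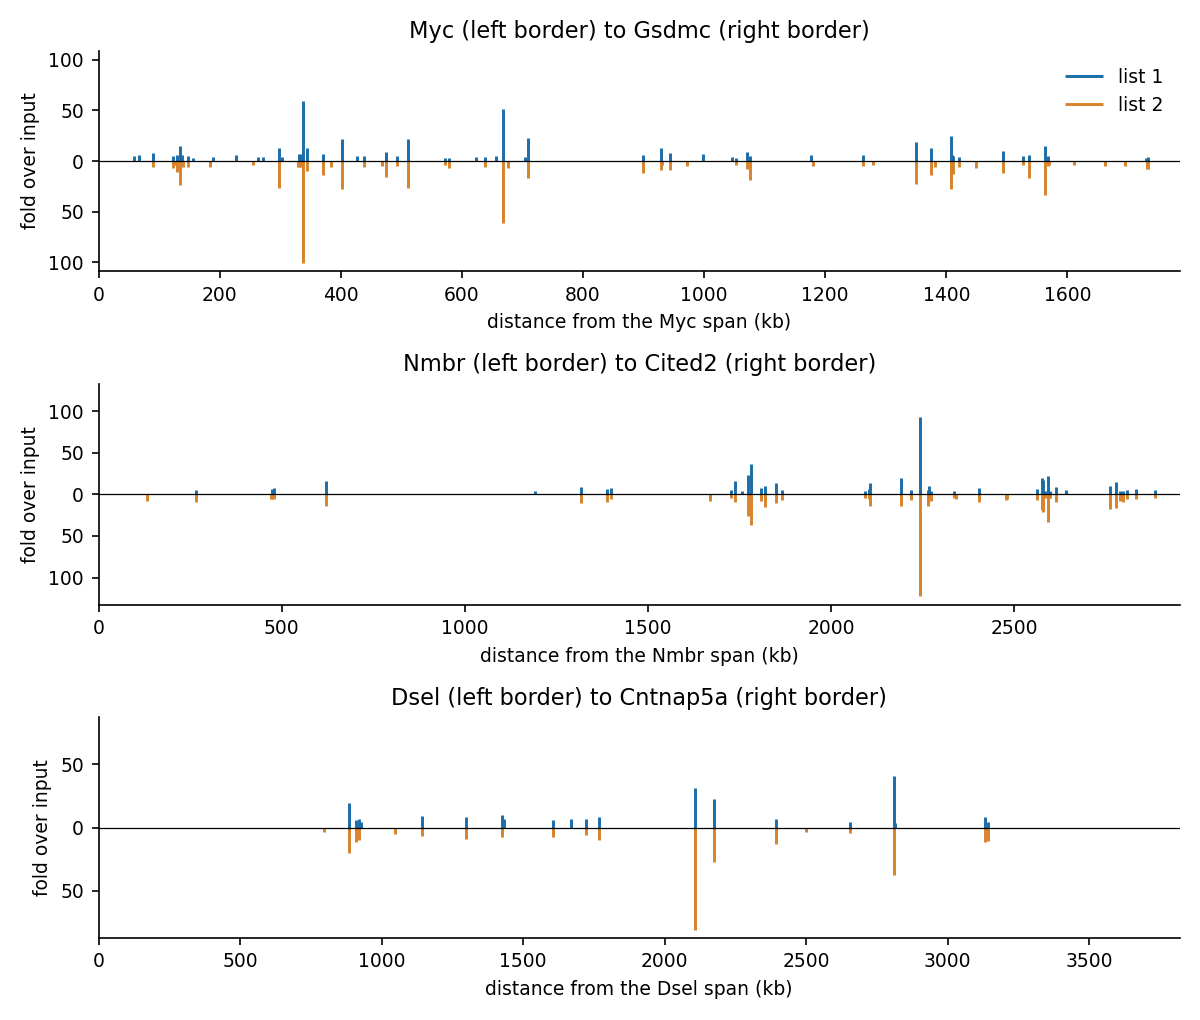
Fold over input of each gene-desert summit (list 1 upward, list 2 downward) against the distance in kb from the span of the gene at the left border, for the stretches from Myc to Gsdmc, Nmbr to Cited2 and Dsel to Cntnap5a. In the panels of Myc and Nmbr the tallest line stands at the same place in both lists, 338 kb from Myc (59.7-fold and 100.8-fold) and 2241 kb from Nmbr (93.4-fold and 122.7-fold). In the panel of Dsel the tallest line differs between the lists (41.1-fold in list 1, 80.9-fold in list 2).

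Density also differed with the kind of gene at the border. The lists of bordering genes were written with earlier results of these data known, so part of a difference may be built in. Deserts beside 13 of 26 YAP/TEAD targets (14 deserts, 5.60 Mb) held 13.2 summits per Mb in list 1 (Poisson interval 10.4 to 16.6) and 14.8 in list 2 (11.8 to 18.4), against 4.53 and 4.73 over all deserts. Their median fold was 7.77 and 8.30, against 6.40 and 6.97. Without the desert from Asap1 to Adcy8, which had the most summits of the 14, they held 10.6 and 12.1 per Mb. The intervals treat summits as independent, although many lay close together. Deserts beside secreted signalling proteins, such as Bmp4, Cxcl12 and Tgfb2, held 10.4 per Mb in each list, and those beside developmental transcription factors 6.70 and 6.82. Without the deserts of Myc and Cited2 the latter held 5.46 and 5.53. Neuronal adhesion and synapse genes bordered 139 deserts of 177 Mb with 0.963 and 1.14 summits per Mb. Beside olfactory and vomeronasal receptor genes, which are silent outside sensory tissue, 74 deserts held 3 summits in list 1 and 2 in list 2.

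Since density depends on distance, the comparison was repeated from 50 to 100 kb from a span. There the YAP/TEAD targets had 39 and 41 summits in 1.13 Mb, or 34.4 (24.5 to 47.0) and 36.2 per Mb (26.0 to 49.1), against 7.80 and 7.89 over all deserts. Secreted signalling proteins had 14.4 (11.6 to 17.6) and 14.5 (11.7 to 17.8), developmental transcription factors 6.67 and 7.10, and neuronal genes 2.57 (1.78 to 3.59) and 2.42 (1.65 to 3.41). The transcription factors thus lay at the level of all deserts in this band. A bordering gene is a neighbour on the map, and nothing here ties a peak to its activity. The desert from Asap1 to Adcy8 was not left out in this band. No test was made over these lists.

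**Figure D3:**
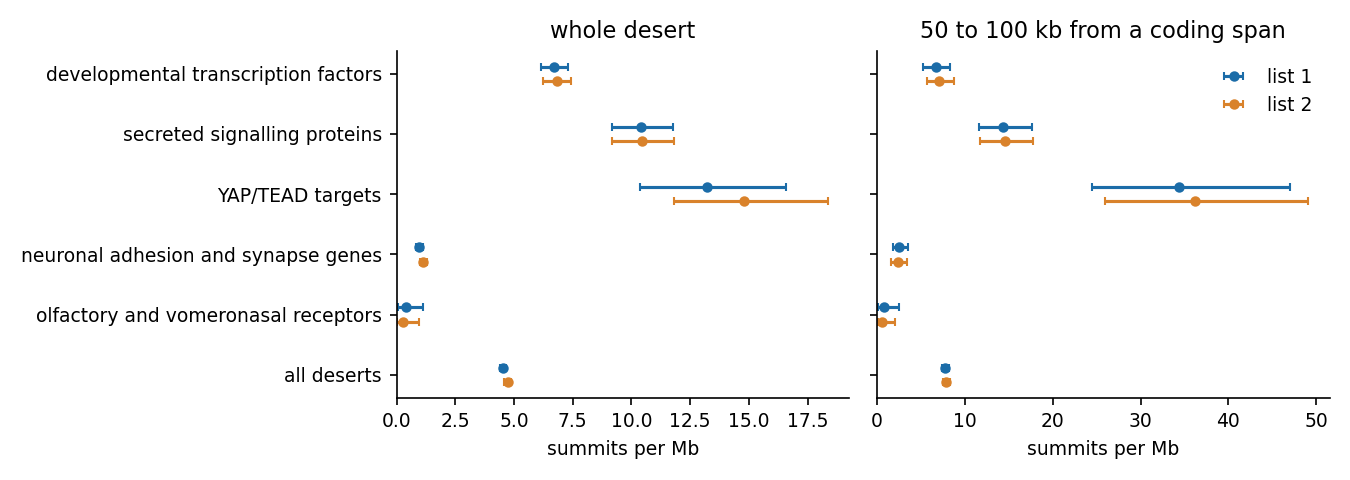
Summits per Mb (points, Poisson 95% intervals) in deserts bordered by genes of 5 lists and in all deserts, over the whole desert (left) and from 50 to 100 kb from a coding span (right). YAP/TEAD targets stand highest in both panels (13.2 and 14.8 per Mb, then 34.4 and 36.2) and receptor genes lowest. The gene lists were written with earlier results of these data known.

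Annotated non-coding genes cover a small part of the deserts. Spans of long non-coding RNA genes covered 11.1% of the desert length and held 890 summits of list 1, or 21.7% (Wilson interval 20.5 to 23.0), and 932 of list 2, or 21.8% (20.5 to 23.0). The median fold inside these spans was 6.58 in list 1 and 6.98 in list 2. Pseudogenes covered 1.29% of the desert and held 26 summits in list 1 and 29 in list 2, 0.634% and 0.677%. Summit density fell with distance from coding spans, and these shares were not matched for that distance. The gene table gives spans only, so exons and introns of these RNAs were not told apart.

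The lists shared most gene-desert peaks. A list 2 peak overlapped 3041 members of list 1, or 74.1% (Wilson interval 72.8 to 75.5), where 70.9% of all list 1 peaks had one. A list 1 peak overlapped 3059 members of list 2, or 71.4% (70.0 to 72.7), the same as the 71.4% of all list 2 peaks. Sharing went with strength. In the lowest decile of −log10 q 30.9% of list 1 members and 26.9% of list 2 members were shared, and in the highest 99.8% and 100%. The shared members rested on a median of 24 fragments in list 1 and 27 in list 2, those of a single list on 13 and 14.

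**Figure D4:**
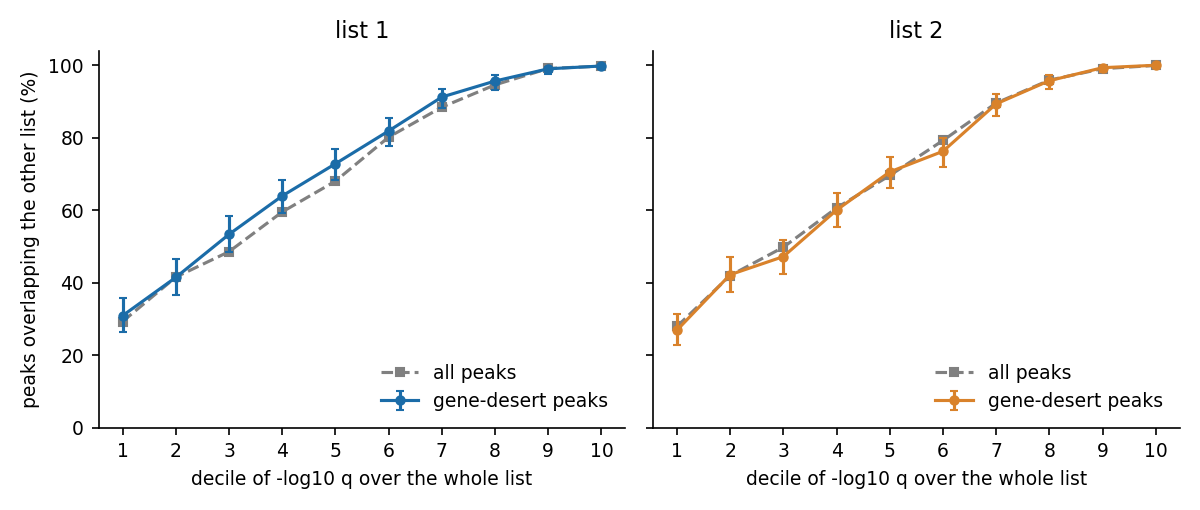
Percentage of gene-desert peaks that overlap a peak of the other list (points, Wilson 95% intervals) and of all peaks (grey squares), by decile of −log10 q over the whole list, for list 1 and list 2. Members go from 30.9% and 26.9% in decile 1 to 99.8% and 100% in decile 10, near the line of all peaks.

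Of the members of a single list, 1061 in list 1 and 1226 in list 2, few were strong: 6 and 19 had a fold of at least 10. Their median fold was 4.62 in list 1 and 4.88 in list 2. Over all peaks of a single list, 6190 and 6073, it was 4.73 and 4.88, so weakness was not particular to the deserts. The 5 with the highest −log10 q in each list are named here. The first of list 1 lay between Zbtb40 and Wnt4, a Wnt ligand gene, at 137200259 to 137200778 on chromosome 4, 77.0 kb from Wnt4. It had 52 fragments and a fold of 17.2 (13.0 to 22.5), and the nearest list 2 summit was 75.6 kb away. The site between Esp15 and Esp38 on chromosome 17 (39847494 to 39848200) had 109 fragments over a high background of 21.3, a fold of 4.94. The remaining sites of these 5 lay between Ptgfr and Gipc2 (12.2-fold), Frk and Amd2 (12.9-fold), and Runx1 and Setd4 (12.1-fold). In list 2 the first lay between Igfbp7, an insulin-like growth factor binding protein gene, and Adgrl3 at 77502585 to 77503072 on chromosome 5, with 46 fragments and a fold of 15.5 (11.4 to 20.6). It was followed by sites from Gdf6 to 2610301B20Rik (13.6-fold), Cfap20dc to Fhit (13.3-fold), Qrfpr to Anxa5 (11.2-fold) and Mid1ip1 to H2al1a (12.6-fold). A peak missing from a list is one not called there, and the signal at its place in that library is not in the lists.

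At the 3025 gene-desert sites paired between the lists (each the best overlap of the other), the median log2 ratio of the folds, list 2 over list 1, was 0.17 (SD 0.56 across sites). Over all 15015 pairs it was 0.15. The list 2 fold was at least 2 times as high at 214 sites, or 7.07%, against 5.81% of all pairs. The list 1 fold was at least 2 times as high at 57, or 1.88%, against 1.90%. The folds moved together, with Pearson's r of 0.80 on the log2 scale and Spearman's rho of 0.73 across the 3025 sites, which share their libraries and are not independent. Summits of a pair lay a median of 26 bp apart. A fold is fragments over background, so sites chosen by the ratio of folds must differ in 1 or both of these, and the medians only describe how. Where list 2 was at least 2 times as high, the ratio of fragments (list 2 over list 1) had a median of 1.85 and that of local backgrounds 0.687. Where list 1 was, they were 0.586 and 1.64.

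Of the gene-desert sites, 964 had −log10 q of at least 20 in both lists. Among these, 64 had a list 2 fold at least 2 times as high (6.64%) and 6 a list 1 fold at least 2 times as high (0.622%). The same counts over all pairs were not made, so these shares cannot be called particular to the deserts. The 5 sites with the largest ratio each way are named. The Nox3 to Arid1b site stood farthest toward list 1. It was followed by sites between Eea1 and Btg1 on chromosome 10 (32.3-fold and 9.89-fold), Slc10a2 and Efnb2 on chromosome 8 (28.6-fold and 12.3-fold), Cldn23 and Prag1 (32.3-fold and 15.6-fold) and Slc44a3 and 4930432M17Rik (20.1-fold and 9.97-fold). At the Slc10a2 to Efnb2 site the fragments were close, 82 and 91, and the local backgrounds were 1.90 and 6.50. Toward list 2 stood the Cdc42ep3 to Rmdn2 site (22.7-fold and 79.5-fold, 163 and 272 fragments) and one between Skint11 and Trabd2b on chromosome 4 (24.9-fold and 86.2-fold, 140 and 246 fragments). Sites from Cfap20dc to Fhit (10.5-fold and 30.4-fold), Plekhb2 to Hs6st1 (11.7-fold and 33.7-fold) and Fabp5 to Pmp2 (19.4-fold and 55.7-fold) followed. With 1 library behind each list, none of these differences could be set against a spread between cultures.

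**Figure D5:**
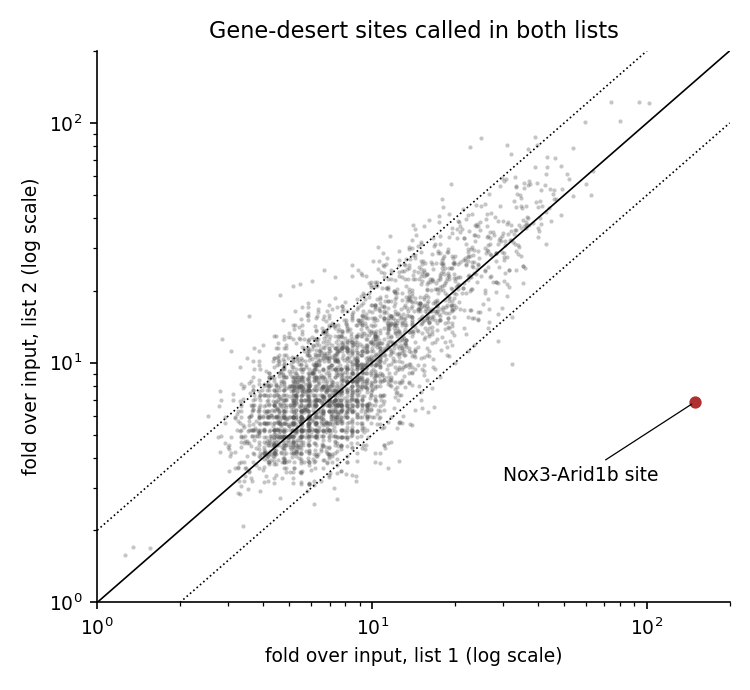
Fold over input in list 1 against list 2 (both log scales) for the 3025 gene-desert sites called in both lists, with the line of equal folds and dotted lines at a ratio of 2. The Nox3 to Arid1b site, at 149.6 and 6.86, lies far from the rest.

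The 50 kb limit fell between peaks of ordinary strength. In list 1 the nearest outside it were 49.974, 49.975 and 49.999 kb from a span (6.02-fold, 5.14-fold and 5.51-fold), and the nearest inside 50.004, 50.022 and 50.054 kb (7.46-fold, 5.44-fold and 8.08-fold). In list 2 they were 49.938, 49.953 and 49.991 kb (8.33-fold, 7.06-fold and 3.44-fold) and 50.023, 50.036 and 50.036 kb (4.76-fold, 4.15-fold and 7.90-fold).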

How the data were processed

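ChIP-seq of cardiac fibroblasts of newborn mice gave 4 libraries, 1 for each of OE-NC ChIP, OE-NC input, OE-TEAD1 ChIP and OE-TEAD1 input. The submitters' processing notes name Trimmomatic 0.33, Bowtie 1.1.2 and MACS2. The sources used here do not give the MACS2 settings or say whether duplicates were dropped. The 2 deposited lists, called against input, give for each peak a summit offset, a score that follows the −log10 q, the fold ratio over input, and the authors' −log10 p and −log10 q. The notes name the build mm39. Summits lay within 1 kb of a protein-coding gene end 1129 and 1072 times on the GRCm38.p6 gene table. After 20 shifts the counts were at most 931 and 972, and coordinates were read as GRCm38. The counts were not made on an mm39 gene table, so they do not set the 2 builds against each other.

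Distances ran from the summit to the nearest of 21631 protein-coding spans. Fragments and local background were solved from fold and p (whole within 0.02 for all members but 2 in each list). The depth of the libraries is not in the lists, and the median of 20 and 22 fragments a summit sets the precision. Peaks overlapping by at least 1 bp were shared. No test over regions was made. Intervals are at 95% and cover counting error only. Scripts used Python 3.11.15, numpy 2.4.6, pandas 2.3.3 and scipy 1.17.1, and were tested on simulated data. Sites and deserts were named by rank: −log10 q, distance, ratio of folds, and summits per desert or per Mb. The members, the lists of bordering genes and these rules were chosen with earlier results of these data known. The choice of promoter windows and microRNAs was made after the lists were seen. Other distances, annotations, overlaps and minimum strengths were tried. A search of summits for motifs needed a genome sequence and was not run.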

Additional observations from a re-analysis of the deposited data

How the results depend on the processing

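The share of peaks in deserts follows the rule itself. Over 100 kb from a span it was 11.9% in list 1 and 12.8% in list 2, over 25 kb 27.4% and 28.5%, and with the spans of every annotated gene, non-coding ones included, 4.77% and 5.22%. Among the 5000 peaks with the highest −log10 q it was 20.5% and 21.4%. The share of members that overlap the other list was 84.1% and 79.2% with −log10 q of at least 5, beside 81.5% and 79.5% of all peaks. With an overlap of at least 50% of both peaks it was 67.0% and 64.2%, beside 64.0% and 64.2%. With summits within 100 bp it was 64.4% and 61.7%, beside 62.0% and 62.2%. It was 72.7% in list 1 without peaks of raised local background, beside 69.7% of all such peaks. With the spans of every gene it was 69.1% in list 2. The median fold was 7.52 and 7.98 with −log10 q of at least 5. The median log2 ratio was 0.12 without raised local background. The other 17 alternative values stayed within the 95% interval of the value reported. In list 2 the overlap share of members, as reported the same as that of all peaks, fell slightly below it in 2 settings. These were −log10 q of at least 5 and summits within 100 bp. The median log2 ratio kept its sign. No paired analysis was possible because each group held 1 library and neither list is tied to a sample. With 1 library behind each list no replicate could be left out. The planned search for the TEAD motif at summits was not run, because no genome sequence was used.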

Other observations

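Of 231 deserts over 1 Mb 83 held no summit in either list, or 35.9%, against 57.4% of all 2737 deserts, most of which are shorter. The 5 longest lay between Cntnap5b and Cdh20 (4.18 Mb), Stim2 and Pcdh7 (3.50 Mb), Cdh6 and Cdh9 (3.45 Mb), 4931417E11Rik and Ctnna2 (3.31 Mb), and Slitrk5 and Gpc5 (3.31 Mb). Each had a gene of the neuronal adhesion and synapse list at a border. That list bordered 139 of all 2737 deserts, and these made up 177 of 907 Mb, so they were long. Its share of all deserts over 1 Mb was not counted, so emptiness cannot be called particular to its genes. Stretches where reads cannot be placed were not taken out of these lengths.

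Chromosomes differed in the density of gene-desert summits. Chromosome 15 had 9.01 per Mb in list 1 and 8.81 in list 2, and chromosome 10 8.85 and 9.03. The X chromosome had 0.844 and 1.13, and chromosome 7 2.59 and 2.62. The median local background at gene-desert summits was also higher on chromosomes 15 (2.62 and 2.60 fragments) and 10 (2.45 and 2.44) than on X and 7, where it was at the floor of the list (1.72 and 1.87). Chromosome 13, also at the floor, had 6.71 and 7.02 summits per Mb. The part of the background in the densities was not tested.

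A stretch of chromosome 9 had raised input. From position 3100000 to 15000000, 11 of 15 gene-desert summits of list 1 and 20 of 24 of list 2 stood over a local background of more than 2 times the floor. Those of list 2 ran from 5812677 to 8836955. The median background there was 10.2 fragments in list 2 and 4.32 in list 1. In this stretch the site between Pdgfd and Dync2h1 at 6667784 to 6668820 had 387 fragments and a fold of 28.6 in list 2, and 118 fragments and a fold of 10.97 in list 1.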
